A study of Mus musculus with 12 samples.

Results

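The genes described here are 9 genes of sugar digestion and absorption in the mouse small intestine. They comprise the brush border disaccharidases Sis, Mgam, Lct and Treh, the sugar transporters Slc5a1, Slc2a5 and Slc2a2, the fructose kinase Khk and the fructose-1,6-bisphosphatase Fbp1. They were taken as a fixed list of symbols, chosen with earlier results of these data known. The shares of all tested genes set beside their counts therefore give scale and do not test the list. Each gene was read from its brightest probe set with exactly 1 gene symbol. Each of the 9 had 1 such probe set, and all 9 passed the filter on low intensity, out of 19938 genes measured and 11923 genes tested. Affymetrix Mouse Gene 1.0 ST arrays were hybridised with RNA scraped from the mucosa and submucosa of 3 segments (proximal, middle and distal) in male C57BL/6J mice, killed in the postprandial state. There were 4 groups of mice, namely old mice of 21 months on the high-fat diet, old mice on the low-fat diet, young mice of 4 months on the high-fat diet and young mice on the low-fat diet. The high-fat diet gave 45% and the low-fat diet 10% of energy as fat for 2 weeks, and in both diets palm oil replaced lard. All mice, the controls included, had received chow and then the low-fat diet beforehand. Equal amounts of RNA from 8 old or 6 young mice were pooled for each array. The same mice gave the 3 segments of a pool, so the series holds 4 pools on 12 arrays, with 1 array for each segment, age and diet.

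Dietary carbohydrate reaches the villus as oligosaccharides and disaccharides, which enzymes anchored in the brush border split into glucose, galactose and fructose. Glucose and galactose enter the enterocyte with sodium through SGLT1, the product of Slc5a1, while fructose enters through GLUT5, the product of Slc2a5, and all of these sugars can leave across the basolateral membrane through GLUT2, the product of Slc2a2. Inside the cell, ketohexokinase phosphorylates fructose, and fructose-1,6-bisphosphatase serves the formation of glucose from smaller carbon units. In rodents the amounts of the disaccharidases and hexose transporters follow the carbohydrate content of the diet.

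Values are log2 intensities after Robust Multi-array Average (RMA) normalisation, so that a difference of 1 is a 2-fold difference. A level is comparable between arrays for the same gene only, and levels of different genes are not set against each other. Differences between segments, ages and diets were tested with limma and called at a Benjamini-Hochberg adjusted p under 0.05 over the 11923 genes. The tissue was checked first. Of 11 enterocyte markers, 4 were called higher and 3 lower in distal against proximal arrays, against 27.3% and 27.5% of all tested genes, with a median of -0.03. Fabp1 (-1.49, SE 0.19), Alpi (-1.47, SE 0.08) and Apoa4 (-0.83, SE 0.23) were lower, Anpep led the higher ones (0.88, SE 0.07), and Vil1 (12.81 to 12.97 over the 12 arrays) and Cdh17 (12.52 to 12.69) were not called. The summed intensity of the 11 was 82720 to 85015 in proximal, 84957 to 89760 in middle and 68024 to 84480 in distal arrays. The summed intensity of 25 pancreatic acinar genes was 63077 to 128480 in the 4 proximal arrays, 9498 to 11051 in the middle arrays and 9109 to 10277 in the distal arrays. Their mean log2 value was 10.32 to 11.59 in proximal, 5.73 to 6.56 in middle and 5.64 to 5.73 in distal arrays. The sums in middle and distal arrays thus rest on a few bright genes of the list and do not show acinar RNA there. All 5 ileal markers were higher distally than proximally, with a summed intensity of 1974 to 2282 in proximal, 2488 to 6272 in middle and 17892 to 19149 in distal arrays. The middle arrays were uneven in them. The ileal bile acid binding protein gene Fabp6 read 7.58 in old high-fat, 8.84 in old low-fat, 11.31 in young high-fat and 9.49 in young low-fat mice. Smooth muscle markers had a summed intensity of 968 to 1641 in proximal, 1420 to 2327 in middle and 1811 to 5514 in distal arrays, and 7 of 8 were called higher distally than proximally. So were 5 of 5 crypt and 5 of 5 Paneth cell markers. The part of these markers in the segment results was not tested. The distal array of old high-fat mice stood apart from the other 3 distal arrays, with a summed intensity of 723 against 1038 to 1146 for 6 leukocyte markers, 2350 against 3455 to 3634 for the crypt markers and 19869 against 26018 to 28546 for the Paneth cell markers. In such scrapings, fewer cells of a type and less RNA per cell cannot be told apart.

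The promoters of 5 of these genes are shown, 4 because the gene was called for diet and Lct because it holds a pair of GATA motif matches. They are the 250 bases before the RefSeq start site, from the RefSeq table for GRCm38.p6, written 5′ to 3′ on the strand of the gene. Capitals mark matches, on either strand, to 6 motifs. These were the GATA motif AGATAA, the CDX motif TTTATG, the HNF1 half-site GTTAAT, the nuclear receptor half-site AGGTCA, the HNF4 site CAAAGTCCA and the E-box CACGTG.
Slc2a2 promoter (chr3:28697653-28697902, plus strand): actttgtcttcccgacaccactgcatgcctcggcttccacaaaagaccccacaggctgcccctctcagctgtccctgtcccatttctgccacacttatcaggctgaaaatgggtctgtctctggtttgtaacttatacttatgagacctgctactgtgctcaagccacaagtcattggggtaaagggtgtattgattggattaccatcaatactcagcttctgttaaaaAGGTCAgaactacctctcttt
Slc5a1 promoter (chr5:33103969-33104218, plus strand): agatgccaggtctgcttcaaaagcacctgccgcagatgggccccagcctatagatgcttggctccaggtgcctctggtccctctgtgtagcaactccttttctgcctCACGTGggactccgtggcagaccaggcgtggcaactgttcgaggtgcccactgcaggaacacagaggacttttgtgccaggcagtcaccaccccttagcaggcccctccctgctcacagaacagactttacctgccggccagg
Mgam promoter (chr6:40628581-40628830, plus strand): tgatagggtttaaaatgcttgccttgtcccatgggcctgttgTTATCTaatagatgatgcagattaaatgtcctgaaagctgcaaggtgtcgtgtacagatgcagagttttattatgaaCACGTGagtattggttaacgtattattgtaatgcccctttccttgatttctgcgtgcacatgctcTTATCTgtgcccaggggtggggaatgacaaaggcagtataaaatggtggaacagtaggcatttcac
Treh promoter (chr9:44672983-44673232, plus strand): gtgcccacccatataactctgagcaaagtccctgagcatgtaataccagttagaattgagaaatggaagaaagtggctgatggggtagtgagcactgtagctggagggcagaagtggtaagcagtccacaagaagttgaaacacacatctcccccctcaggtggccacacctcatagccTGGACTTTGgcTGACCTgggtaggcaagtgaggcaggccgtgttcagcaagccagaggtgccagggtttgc
Lct promoter (chr1:128328319-128328568, minus strand): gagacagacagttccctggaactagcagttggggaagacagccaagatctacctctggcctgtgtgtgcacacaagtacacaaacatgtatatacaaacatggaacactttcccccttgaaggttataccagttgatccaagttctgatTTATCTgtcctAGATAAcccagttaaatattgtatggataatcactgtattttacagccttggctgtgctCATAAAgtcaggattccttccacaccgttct
In Lct the GATA motif lies 101 to 96 and 90 to 85 bases before the start, and the CDX motif 31 to 26 bases before it. Mgam holds the GATA motif 208 to 203 and 66 to 61 bases before its start and an E-box at 131 to 126. Slc5a1 holds an E-box at 143 to 138. Slc2a2 holds the nuclear receptor half-site at 21 to 16, and Treh holds it at 60 to 55, next to the HNF4 site at 71 to 63. Among all 32851 promoter windows of this length, 9.99% held the GATA motif, 10.8% the CDX motif, 6.43% the HNF1 half-site, 14.0% the nuclear receptor half-site, 0.384% the HNF4 site and 6.02% the E-box. A match describes the letters only and is not evidence of binding.

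All 9 genes were lower in the distal than in the proximal segment. The falls were largest for Fbp1, Slc2a2 and Slc2a5 and smallest for Mgam and Sis. In limma with the pool as a block, 9 of 9 were called lower in distal against proximal arrays, where 27.5% of all tested genes were called lower. In middle against proximal arrays 7 of 9 were called lower, against 10.9% of all tested genes, and in distal against middle arrays 8 of 9, against 20.0%. The median difference of the 9 genes was -1.56 for distal against proximal, -0.55 for middle against proximal and -1.38 for distal against middle, while the medians over all tested genes were 0.02, 0.01 and 0.01. Taking arrays of the same pool 2 at a time, 106 of 108 segment comparisons were lower in the more distal array, and 55 of the 108 by over 2-fold. Over all tested genes, 2.21% of such single-array comparisons were lower by over 2-fold. The 108 comparisons share arrays and pools, so their counts are descriptions and not replicates. The study applied a 2-fold threshold to single arrays for age and for diet, and its methods describe no such comparison between segments.

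**Figure D1:**
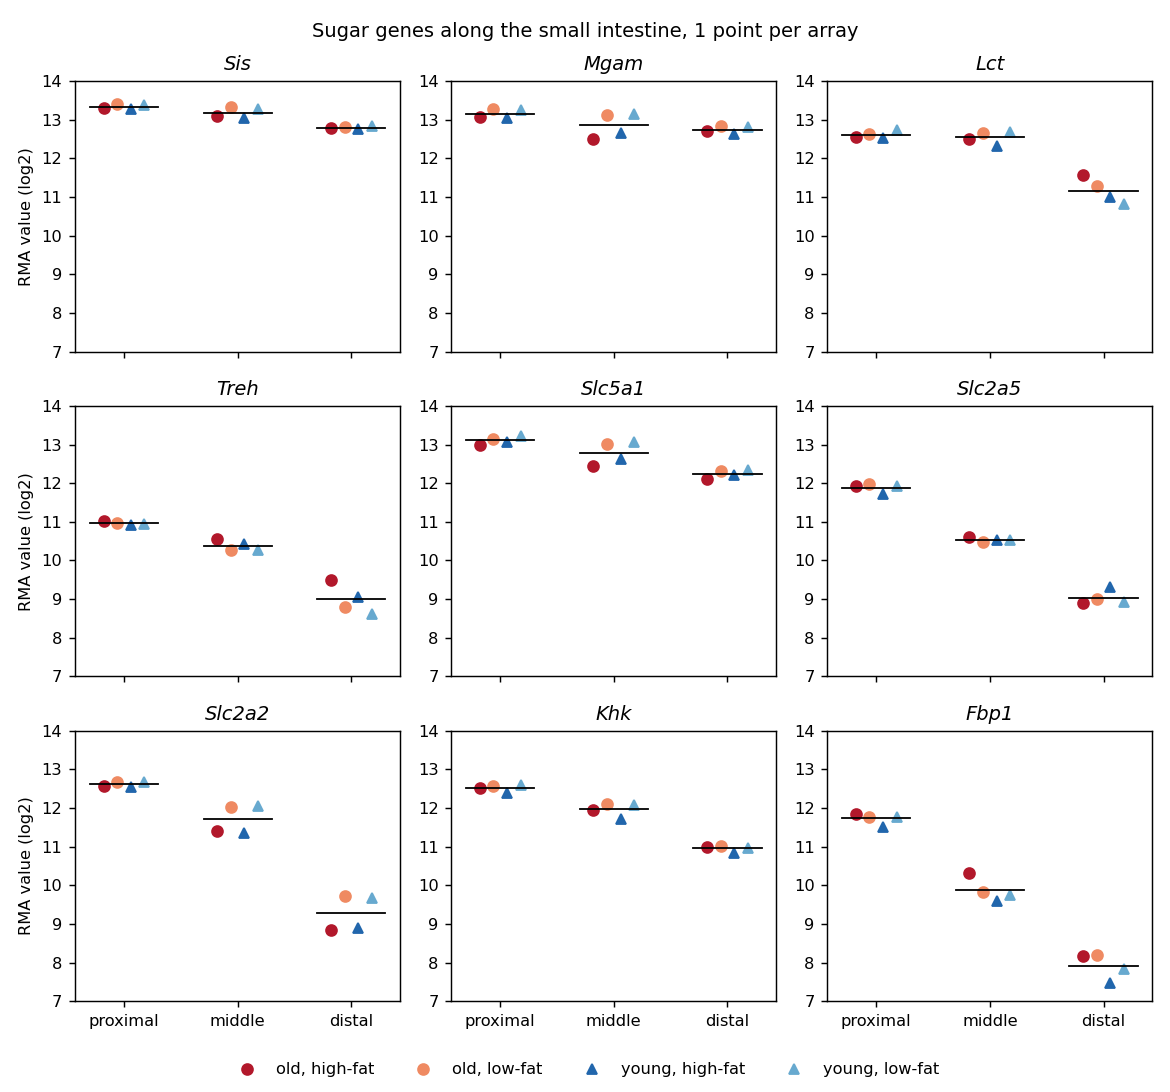
Level of each of the 9 sugar genes (RMA value, log2, vertical axis) in the proximal, middle and distal segments (horizontal axis), 1 point for each array of pooled RNA, with circles for old and triangles for young mice, dark colours for the high-fat and light colours for the low-fat diet, and a line at the mean of the 4 arrays. Fbp1, Slc2a2 and Slc2a5 step down in both intervals, and Lct drops between the middle and the distal segment.

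Among the disaccharidases, sucrase-isomaltase (Sis, chr3:72888557-72967863 in GRCm38.p6), which splits sucrose and isomaltose, varied least. Its level was 13.27 to 13.40 in proximal, 13.03 to 13.33 in middle and 12.75 to 12.84 in distal arrays. The distal arrays lay below all the others. The distal against proximal difference was -0.55 (SE 0.06, adjusted p = 1.71e-05), and the distal against middle difference was -0.39 (SE 0.06, adjusted p = 0.000441). The middle and proximal levels overlapped, and their difference of -0.15 (95% interval -0.28 to -0.03) was not called (adjusted p = 0.0687, and 0.0134 to 0.276 over the alternatives run).

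Maltase-glucoamylase (Mgam, chr6:40628831-40769123), which releases glucose from the ends of starch fragments, read 13.04 to 13.27 in proximal, 12.51 to 13.14 in middle and 12.63 to 12.85 in distal arrays. It was lower distally than proximally by a difference of -0.42 (SE 0.08, adjusted p = 0.00186). The middle arrays spanned the distal range, and the distal against middle difference of -0.12 (95% interval -0.30 to 0.07) was not called (adjusted p = 0.299). The middle against proximal difference of -0.30 (adjusted p = 0.0267) was no longer called without the pool as a block (adjusted p = 0.128), with the pool as a random block (0.0738), or without the pool of old high-fat (0.0589), old low-fat (0.0574) or young high-fat mice (0.138).

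Lactase (Lct, chr1:128284756-128328318), the enzyme of milk sugar, differed little over the first 2 segments. It was 12.53 to 12.74 in proximal and 12.32 to 12.68 in middle arrays, with a difference of -0.07 (95% interval -0.36 to 0.21, adjusted p = 0.734). In distal arrays it was 10.82 to 11.56, below every other array. The difference of distal against middle was -1.38 (SE 0.13, adjusted p = 3.15e-05) and that of distal against proximal -1.45 (SE 0.13, adjusted p = 6.69e-06).

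Trehalase (Treh, chr9:44673233-44686305), which splits the disaccharide of fungi and insects, read 10.91 to 11.02 in proximal, 10.27 to 10.55 in middle and 8.62 to 9.49 in distal arrays. The ranges of the 3 segments did not overlap. The distal against proximal difference was -1.97 (SE 0.11, adjusted p = 2.83e-07), of which -0.58 (SE 0.11, adjusted p = 0.00389) lay between the proximal and the middle segment. The spread among the distal arrays (SD 0.38) exceeded that among the proximal arrays (SD 0.04).

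Among the transporters, the sodium-glucose cotransporter gene Slc5a1 (chr5:33104219-33162699) had the smallest gradient. It read 12.99 to 13.23 in proximal, 12.46 to 13.06 in middle and 12.10 to 12.35 in distal arrays, and differed by -0.86 (SE 0.07, adjusted p = 5.80e-06) in distal against proximal arrays. The middle against proximal difference of -0.32 (SE 0.07, adjusted p = 0.0111) was no longer called without the pool as a block (0.0788) or without the pool of young high-fat mice (0.0797).

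The fructose transporter gene Slc2a5 (chr4:150119344-150144168) read 11.72 to 11.97 in proximal, 10.49 to 10.62 in middle and 8.91 to 9.31 in distal arrays. No ranges overlapped. It differed by -1.35 (SE 0.10, adjusted p = 9.32e-06) in middle against proximal and by -1.50 (SE 0.10, adjusted p = 2.91e-06) in distal against middle arrays, in sum -2.85 or 7.21-fold lower.

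The basolateral transporter gene Slc2a2 (chr3:28697903-28728361) read 12.55 to 12.68 in proximal, 11.35 to 12.05 in middle and 8.84 to 9.72 in distal arrays. The larger step lay past the middle, with differences of -0.91 (SE 0.12, adjusted p = 0.000583) in middle against proximal and -2.43 (SE 0.12, adjusted p = 9.18e-07) in distal against middle arrays. Distal arrays were 10.1-fold lower than proximal arrays.

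Ketohexokinase (Khk, chr5:30921436-30931248), the first enzyme of fructose breakdown, read 12.39 to 12.59 in proximal, 11.72 to 12.11 in middle and 10.85 to 11.03 in distal arrays. Its ranges did not overlap, and it differed by -0.55 (SE 0.06, adjusted p = 0.000104) in middle against proximal and by -1.01 (SE 0.06, adjusted p = 1.32e-06) in distal against middle arrays.

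Fbp1 (chr13:62864753-62888298) showed the largest fall of the 9. It read 11.52 to 11.85 in proximal, 9.59 to 10.31 in middle and 7.47 to 8.20 in distal arrays, with nearly equal steps of -1.87 (SE 0.10, adjusted p = 1.71e-06) in middle against proximal and -1.95 (SE 0.10, adjusted p = 8.19e-07) in distal against middle arrays. Distal arrays were 14.1-fold lower than proximal arrays.

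The other genes of these pathways, in lists chosen with earlier results of these data known, differed in how many members followed the same direction. In distal against proximal arrays 27.3% of all tested genes were called higher and 27.5% lower. Of 4 tested genes of fructose and polyol breakdown, 3 were called lower and 1 higher. Triokinase (Tkfc), the next kinase of the fructose route, was lower by -1.70 (SE 0.06), the glycerol-3-phosphate dehydrogenase gene Gpd1 by -1.38 (SE 0.08) and the glycerate kinase gene Glyctk by -0.84 (SE 0.06). The aldehyde dehydrogenase gene Aldh1b1 was higher by 1.24 (SE 0.07). Of 8 genes of gluconeogenesis other than Fbp1, 6 were called lower and 1 higher, with a median of -0.66. G6pc, the catalytic subunit of glucose-6-phosphatase, was lower by -2.48 (SE 0.07). Its partner in the endoplasmic reticulum membrane, the glucose-6-phosphate transporter Slc37a4, was lower by -2.21 (SE 0.07). Pck1, the cytosolic phosphoenolpyruvate carboxykinase, was lower by -1.67 (SE 0.09), and pyruvate carboxylase Pcx by -0.88 (SE 0.06). Pck1 in middle against proximal arrays differed by 0.17 (SE 0.09, adjusted p = 0.191).

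Of 19 tested glycolytic genes, 15 were called lower and 3 higher in distal against proximal arrays, with a median of -0.55. The aldolase gene Aldoc was lower by -1.94 (SE 0.15), the phosphofructokinase activator gene Pfkfb3 by -1.43 (SE 0.19) and pyruvate kinase Pkm by -1.36 (SE 0.06), while hexokinase 2 (Hk2) was higher by 1.48 (SE 0.07). Of 17 other tested sugar transporters, 6 were called lower and 5 higher, with a median of 0.04. The GLUT family member Slc2a7 was lower by -3.08 (SE 0.07), the sugar phosphate exchanger Slc37a2 by -2.43 (SE 0.16) and the SGLT family member Slc5a4a by -1.84 (SE 0.11), while the inositol transporter Slc2a13 was higher by 1.14 (SE 0.13). Of 10 genes of galactose and glycogen handling, 6 were called lower and 1 higher, led by the galactose mutarotase Galm (-1.05, SE 0.06). In the list of sugar sensing genes, the carbohydrate response factor gene Mlxipl (ChREBP) was lower by -0.74 (SE 0.09), while Arrdc4 and Txnip, known as targets of this factor, were higher by 0.63 (SE 0.08) and 0.40 (SE 0.05).

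**Figure D2:**
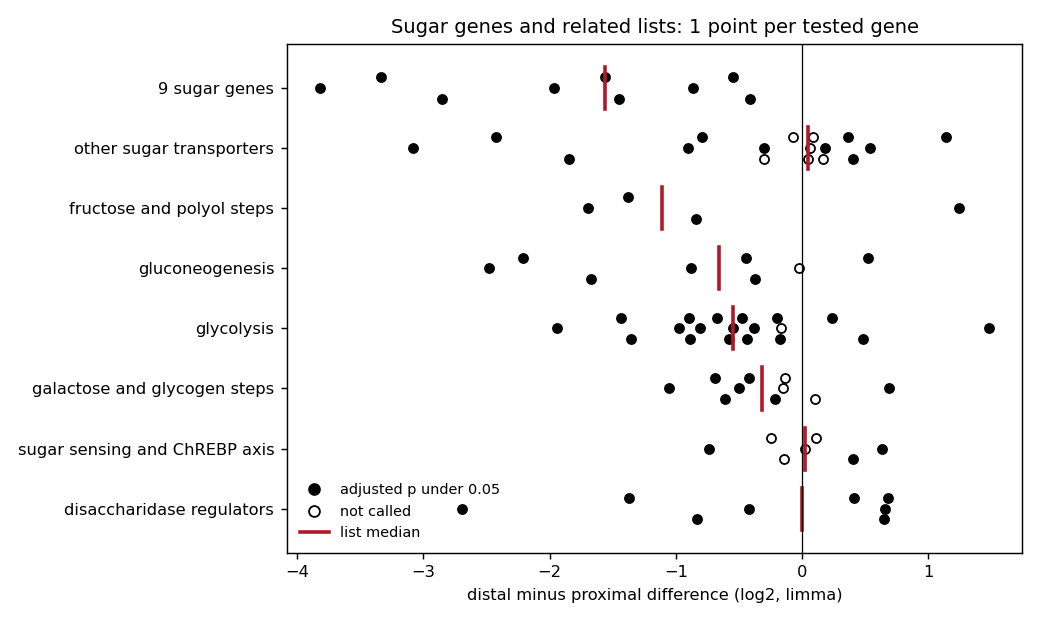
Distal minus proximal difference (limma, log2, horizontal axis) of every tested gene in the 9 sugar genes and in 7 related lists (rows), filled where the adjusted p was under 0.05, with a red line at the median of each list. The 9 sugar genes all lie left of 0, while each of the 7 related lists has genes on both sides of it.

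Among the transcription factors known to act on disaccharidase promoters, 4 of 8 tested were called lower and 4 higher in distal against proximal arrays. Of all tested genes, 27.5% were called lower and 27.3% higher. Pdx1 was lower by -2.70 (SE 0.07), Gata4 by -1.37 (SE 0.09) and Gata6 by -0.83 (SE 0.06), while Cdx2 was higher by 0.68 (SE 0.07). Gata4 had one of the 3 patterns most like that of Treh over the 12 arrays (Pearson r = 0.99), beside Nr1i3 (r = 1.00 after rounding) and Adipor2 (r = 0.99). For Khk the most similar genes were Pkm, G6pc and Vwce, each with r = 0.99 or above. For Slc2a5 they were Smim31, Sdhc and Nat8f5, for Fbp1 Slc25a3, Ireb2 and Scamp5, for Slc2a2 Ifnar2, Ctsz and Ifi27l2b, for Lct Dgat1, Prkg2 and Fbln1, for Sis Cyp4f13, Pdxk and Ppargc1a, and for Slc5a1 Frk, Chn2 and Sectm1b. Mgam had the least close neighbours, namely Nlrp1b, Aplp2 and Ush1c (r = 0.97 each). These correlations are descriptions over 12 arrays that share 4 pools, and they follow mainly the segments. Among the 9 genes themselves r ran from 0.52 for Mgam and Treh to 0.98 for Slc2a2 and Khk.

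The high-fat diet was set against the low-fat diet to ask how the genes responded to a diet with less carbohydrate. Slc2a2, Mgam and Slc5a1 fell and Treh rose. In limma on the means of the 4 pools, 3 of the 9 were called lower, against 3.15% of all tested genes, and 1 was called higher, against 2.53%. Slc2a2 differed by -0.54 (SE 0.05, adjusted p = 0.0025), Mgam by -0.31 (SE 0.05, adjusted p = 0.0189), Slc5a1 by -0.28 (SE 0.05, adjusted p = 0.0261) and Treh by 0.26 (SE 0.06, adjusted p = 0.047). This fit has 1 residual degree of freedom and takes most of its error from the spread over all genes. On simulated data it made more false calls than its threshold allows, so its adjusted p-values are somewhat too small and those of Mgam, Slc5a1 and Treh lie near enough to the threshold to be affected. Within segments, 3 of 9 were called lower in the middle segment, against 1.24% of all tested genes. In the distal segment 1 was called lower and 1 higher, against 0.168% and 0.361%. In the proximal segment 0 of 9 were called, against 0.319% of all tested genes called in either direction. At an unadjusted p under 0.05 there was 1 of 9, against 10.8% of all tested genes. None of the 54 single-array diet comparisons reached 2-fold, against 0.415% of such comparisons over all tested genes. At so small a share, 0 of 54 does not set these genes apart.

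**Figure D3:**
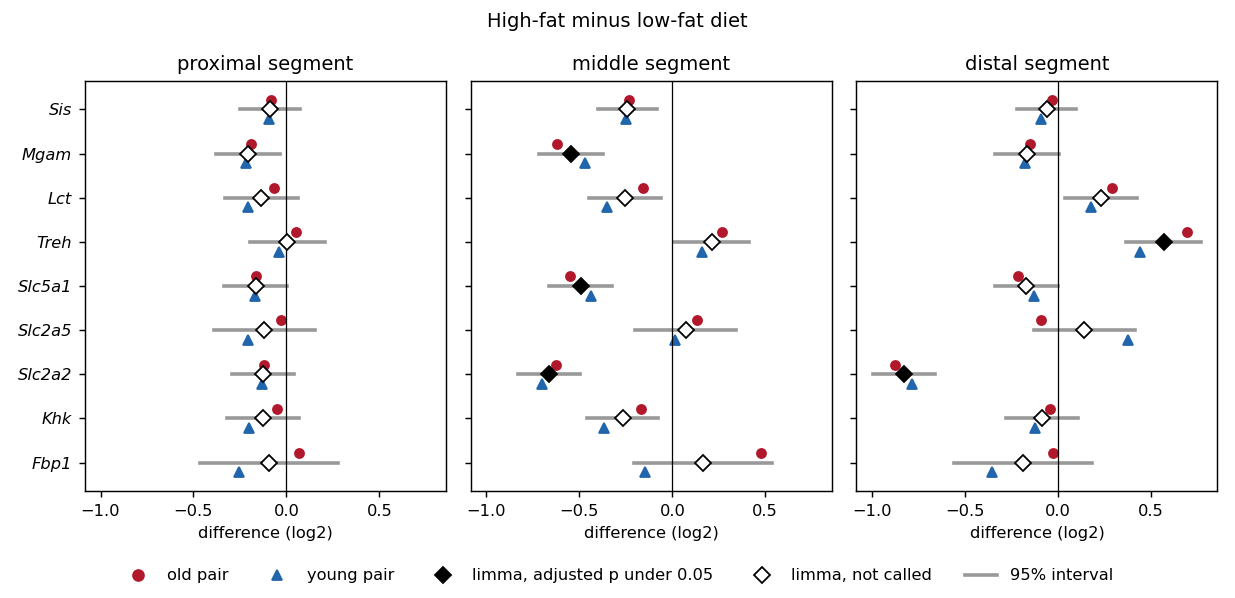
High-fat minus low-fat difference (log2, horizontal axis) of each sugar gene (rows) in the 3 segments. Circles are the pair of old and triangles the pair of young mice, diamonds the limma estimate (filled where the adjusted p was under 0.05), and grey bars its 95% interval. Slc2a2 lies near -0.66 for middle and -0.83 for distal arrays, while Treh lies at 0.57 in the distal segment.

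Slc2a2 in the distal segment was 8.84 in old and 8.89 in young high-fat mice, against 9.72 in old and 9.68 in young low-fat mice. In the middle segment it was 11.40 in old and 11.35 in young high-fat mice, against 12.03 in old and 12.05 in young low-fat mice. In both segments the high-fat arrays lay below the low-fat arrays by more than the ages differed. The difference was -0.83 (SE 0.07, adjusted p = 0.00663) in distal arrays and -0.66 (SE 0.07, adjusted p = 0.00519) in middle arrays, or 1.78-fold and 1.58-fold lower. In the proximal segment the values were 12.56 in old and 12.55 in young high-fat mice, and 12.68 in both old and young low-fat mice, a difference of -0.13 (95% interval -0.29 to 0.04) that was not called (adjusted p = 0.586). The difference between the distal and the proximal diet response was -0.71 (SE 0.10), with an adjusted p of 0.0952, so that it was not called at the threshold.

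Mgam in the middle segment was 12.51 in old and 12.67 in young high-fat mice, against 13.13 in old and 13.14 in young low-fat mice. The 2 diets did not overlap, and the difference was -0.55 (SE 0.07, adjusted p = 0.0132). In the proximal segment it was 13.08 in old and 13.04 in young high-fat mice, against 13.27 in old and 13.25 in young low-fat mice. In the distal segment it was 12.69 in old and 12.63 in young high-fat mice, against 12.85 in old and 12.81 in young low-fat mice. These differences of -0.20 and -0.17 had the same sign and were not called (adjusted p = 0.363 and 0.295).

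Slc5a1 in the middle segment was 12.46 in old and 12.62 in young high-fat mice, against 13.01 in old and 13.06 in young low-fat mice, a difference of -0.49 (SE 0.07, adjusted p = 0.0192). Its proximal difference was -0.16 (95% interval -0.33 to 0.00) and its distal difference -0.17 (95% interval -0.34 to 0.00), neither of them called (adjusted p = 0.478 and 0.28). Both Slc5a1 and Mgam were lower on the high-fat diet in 6 of 6 pairs.

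Leaving out any array of the middle segment left a single pair there, and none of the 3 middle calls then passed (adjusted p 0.113 to 0.428), although their differences stayed between -0.70 and -0.44. In the distal segment the Slc2a2 difference stayed between -0.88 and -0.78, and its call was lost without either array of old mice (adjusted p = 0.106) and held without either array of young mice (adjusted p = 0.04). Without a filter on dim genes, the pool means of Mgam (adjusted p = 0.0686) and Slc5a1 (adjusted p = 0.0856) were not called. Without the middle segment, the pool means of Mgam (adjusted p = 0.198) and Slc5a1 (adjusted p = 0.227) were not called, while Slc2a2 was called in each of the 9 alternatives of that fit (adjusted p up to 0.0276).

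Treh in the distal segment was 9.49 in old and 9.06 in young high-fat mice, against 8.80 in old and 8.62 in young low-fat mice. Both high-fat arrays lay above both low-fat arrays. The difference was 0.57 (SE 0.09, adjusted p = 0.0479), or 1.48-fold higher. It was 0.21 (SE 0.09, adjusted p = 0.256) in the middle and 0.00 (SE 0.09, adjusted p = 0.991) in the proximal segment. The call was close to the threshold and was lost without a filter on dim genes (0.0979), with the pool as a random block (0.056), in the distal arrays alone (0.0942) and without any 1 distal array (0.0553 to 0.469). The call on pool means was lost in 6 of 9 alternatives (adjusted p 0.00182 to 0.398 over all 9).

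The other members were not called for diet in any segment. Sis and Khk were lower on the high-fat diet in 6 of 6 pairs, by -0.03 to -0.25 for Sis and -0.04 to -0.37 for Khk. Their middle segment differences of -0.24 (SE 0.07, adjusted p = 0.125) and -0.27 (SE 0.08, adjusted p = 0.151) had unadjusted p-values of 0.00879 and 0.0131. Lct differed by -0.26 (SE 0.08, adjusted p = 0.168) in middle arrays and by 0.23 (SE 0.08, adjusted p = 0.237) in distal arrays. Slc2a5, the fructose transporter, differed by at most 0.14 in size over the segments (95% interval -0.13 to 0.41 in distal arrays). Its distal value averages -0.09 in the pair of old and 0.37 in the pair of young mice, so that it turned sign without either array of young mice. Fbp1 differed by -0.09 in proximal, 0.16 in middle and -0.19 in distal arrays, with intervals that included 0 in each segment. The old and young pairs had opposite signs in proximal (0.07 and -0.26) and middle arrays (0.48 and -0.15), so that leaving out 1 array could turn either value, and the distal pairs were -0.03 in old and -0.35 in young mice.

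Cell markers also moved with diet. In distal arrays the summed intensity of 11 enterocyte markers was 84480 in old and 78751 in young high-fat mice, against 70274 in old and 68024 in young low-fat mice. Of the 11, 2 were called, both higher (against 0.361% of all tested genes). They were the lipid handling genes Apoa4 (1.31, SE 0.07) and Fabp1 (1.13, SE 0.08). Vil1 and Cdh17 in these distal arrays stayed within 12.81 to 12.84 and 12.52 to 12.60. In proximal arrays 5 of 8 gastric and Brunner gland markers rose on the high-fat diet (against 0.235% of all tested genes), with a summed intensity of 1943 in old and 3333 in young high-fat mice, against 683 in old and 832 in young low-fat mice. The 25 pancreatic acinar genes summed there to 89741 in old and 128480 in young high-fat mice, against 72611 and 63077 in low-fat mice. In the young proximal pair 0 of the 9 sugar genes were higher and 9 lower, with a median of -0.20 against -0.05 over all genes. In the old proximal pair 2 were higher and 7 lower, with a median of -0.06 against -0.004 over all genes. In middle arrays 1 of 5 ileal markers was called higher (against 1.31% of all tested genes) and 4 were not called, and the Fabp6 values are those given above. Slc10a2 read 7.79 in old and 9.94 in young high-fat mice, against 6.84 in old and 7.48 in young low-fat mice. Fgf15 went the other way, at 7.03 in old and 7.18 in young high-fat mice, against 8.63 in old and 7.83 in young low-fat mice. Smooth muscle markers in distal arrays summed to 1811 in old and 4008 in young high-fat mice, against 2982 in old and 5514 in young low-fat mice. Of the 8, 0 were called there, against 0.168% of all tested genes lower and 0.361% higher. In the pool means 4 of 8 were called lower, against 3.15% of all tested genes. The distal old high-fat array, which stood apart in its leukocyte, crypt and Paneth cell markers, held the highest Treh and Lct and the lowest Slc2a2 level of the distal arrays. Without it the distal diet differences were 0.44 for Treh (adjusted p = 0.469), 0.17 for Lct and -0.78 for Slc2a2 (adjusted p = 0.106). The part of these markers in the sugar gene results was not tested.

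Of the 17 other sugar transporters, 1 was called higher and 3 lower on the high-fat diet in the pool means. Of all tested genes, 2.53% were called higher and 3.15% lower in that fit. Slc5a4b, a close relative of Slc5a1, was higher by 0.63 (10.75 against 10.12, SE 0.05, adjusted p = 0.0014) and was also called higher in the distal (0.94, SE 0.08) and middle segments (0.45, SE 0.08). Its neighbour in sequence, Slc5a4a, was lower by -0.31 (SE 0.06), Slc2a7 by -0.29 (SE 0.05) and the inositol transporter Slc5a11 by -0.24 (SE 0.05). Probe sets of these related genes could share signal, which was not tested. Of 19 glycolytic genes, Pfkfb3, which makes the activator of phosphofructokinase, was lower by -1.25 (7.49 against 8.74, SE 0.10, adjusted p = 0.0015) and by -1.90 (SE 0.16) in the middle segment. Aldoc was higher by 0.40 (SE 0.08) in the pool means. Of the 8 genes of gluconeogenesis, 4 of fructose breakdown, 10 of galactose and glycogen handling, 7 of sugar sensing and 8 regulators of disaccharidases, 0 were called for diet in the pool means. At the shares of all tested genes given above, lists this short are not set apart by 0 calls.

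Old mice were compared with young mice to ask whether these genes changed with age. None of the 9 was called in any segment or in the pool means. Of all tested genes, 0.109% were called in either direction in proximal arrays, 0.0252% in middle arrays, 0.654% in distal arrays and 2.89% in the pool means. At an unadjusted p under 0.05 there were 0 members in proximal arrays, 1 in middle arrays, 3 in distal arrays and 3 in the pool means, while 8.67%, 8.79%, 19.0% and 17.8% of all tested genes passed that threshold in the same comparisons. None of the 54 single-array age comparisons reached 2-fold, against 0.254% over all tested genes, a share too small for this to set the 9 genes apart. The medians of the 9 genes were 0.04, 0.05 and 0.06 from proximal to distal. A missed threshold does not show that the ages were alike, so intervals are given.

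**Figure D4:**
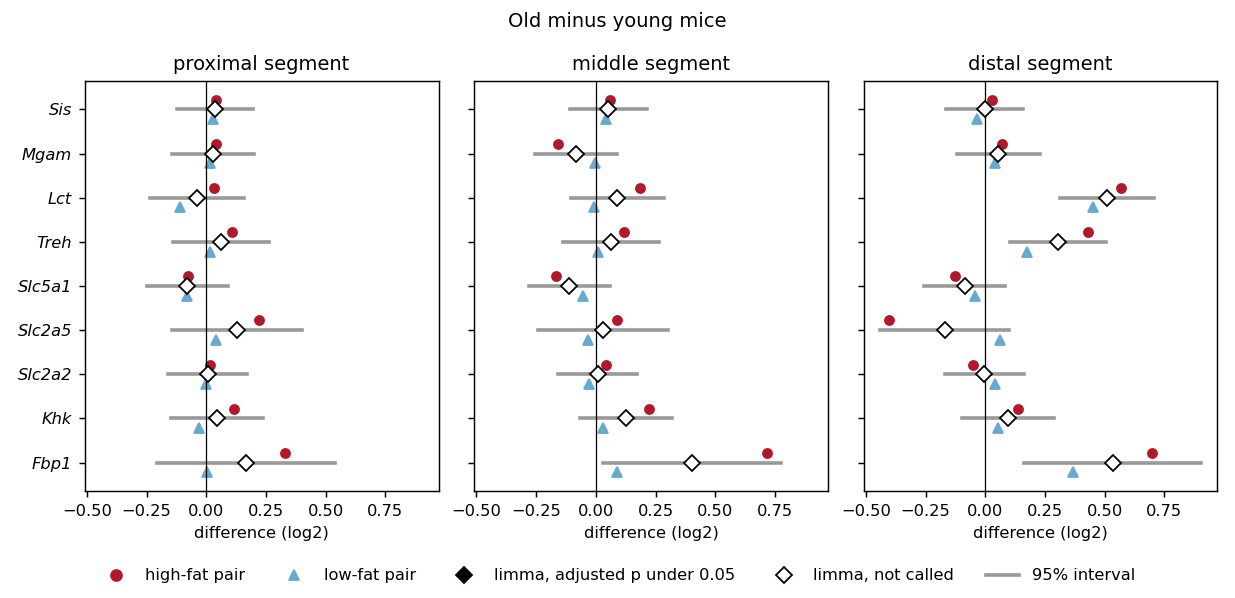
Old minus young difference (log2, horizontal axis) of each sugar gene (rows) in the 3 segments. Circles are the high-fat and triangles the low-fat pair, diamonds the limma estimate (open, since none passed), and grey bars its 95% interval. Lct at 0.51 and Fbp1 at 0.53 in the distal segment lie farthest from 0.

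Lct in the distal segment was 11.56 in old high-fat mice, 0.57 above young high-fat mice, and 11.28 in old low-fat mice, against 10.82 in young low-fat mice. Both old arrays lay above both young arrays. The difference was 0.51 (95% interval 0.31 to 0.70, adjusted p = 0.0558), and the adjusted p ran from 0.000665 to 0.46 over the alternatives. In the middle and proximal segments it was 0.09 (95% interval -0.11 to 0.28) and -0.04 (95% interval -0.23 to 0.16).

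Fbp1 was higher in old mice in 6 of 6 pairs, by 0.00 to 0.72. As for diet, the 6 pairs share the same pools and are not independent. In the middle segment it was 10.31 in old and 9.59 in young mice on the high-fat diet, and 9.83 in old and 9.74 in young mice on the low-fat diet, so that 1 array, old high-fat, stood above the other 3. In the distal segment it was 8.17 in old and 7.47 in young high-fat mice, and 8.20 in old and 7.83 in young low-fat mice. The differences were 0.40 (95% interval 0.03 to 0.78, adjusted p = 0.533) for middle arrays and 0.53 (95% interval 0.16 to 0.90, adjusted p = 0.171) for distal arrays. The middle old high-fat array also held the lowest Fabp6 value of the middle arrays, and the young high-fat array held the highest Fabp6 and the lowest Fbp1 value. The part of this in the Fbp1 result was not tested.

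Treh was higher in old mice in 6 of 6 pairs, by 0.01 to 0.43, with a distal difference of 0.30 (95% interval 0.10 to 0.50, adjusted p = 0.163). Slc5a1 was lower in old mice in 6 of 6 pairs, by -0.04 to -0.17, and its pool mean difference was -0.09 (95% interval -0.21 to 0.02, adjusted p = 0.377). For Slc2a2, Mgam and Sis the pool mean differences were 0.00 (95% interval -0.11 to 0.12), 0.00 (95% interval -0.11 to 0.11) and 0.03 (95% interval -0.09 to 0.14). Khk differed by 0.09 (95% interval -0.04 to 0.22) and Slc2a5 by 0.00 (95% interval -0.12 to 0.11). In the distal segment Slc2a5 was 8.91 in old and 9.31 in young high-fat mice, a difference of -0.40, while the low-fat pair differed by 0.06.

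Smooth muscle markers moved with age beside these values. In distal arrays 6 of 8 fell (against 0.47% of all tested genes), and their summed intensity was 1811 in old and 4008 in young high-fat mice, and 2982 in old and 5514 in young low-fat mice. Of 11 enterocyte markers, 1 was called in distal arrays, against 0.654% of all tested genes called in either direction. It was Fabp1, higher in old mice by 0.51 (SE 0.08, adjusted p = 0.0462). Without the distal old high-fat array, which stood apart in its markers, the distal age differences were 0.45 for Lct, 0.37 for Fbp1 and 0.18 for Treh. The part of these markers in the age values of the sugar genes was not tested. Of the other lists of sugar handling, the age comparison of the pool means called 1 gene, where 2.89% of all tested genes were called. It was the liver-type phosphofructokinase Pfkl among 19 glycolytic genes, higher by 0.32 (adjusted p = 0.036). A single call over these lists does not exceed that share, and this fit made too many false calls on simulated data.

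The age and diet responses themselves were compared between segments. For age, distal against proximal, 0 of 9 and 0.0% of all tested genes were called, and 1 of 9 had an unadjusted p under 0.05, against 8.83% of all tested genes. For diet, distal against proximal, 0 of 9 were called, against 0.0503% of all tested genes, and 3 of 9 had an unadjusted p under 0.05, against 9.5%. The largest of these after Slc2a2 was Treh, at 0.56 (SE 0.12, adjusted p = 0.274). A comparison of the diet response in the middle against the proximal segment was added after the values were seen. It called 0 of 9, against 0.0252% of all tested genes, and 3 of 9 had an unadjusted p under 0.05, against 6.72%. It gave -0.54 (SE 0.10, adjusted p = 0.293) for Slc2a2, -0.34 (SE 0.10, adjusted p = 0.587) for Mgam and -0.33 (SE 0.10, adjusted p = 0.587) for Slc5a1. These counts depended on the variance model. With an intensity trend and robust variance, Slc2a2 (adjusted p = 0.000552) and Treh (0.0275) were called in distal against proximal, and Slc2a2, Mgam and Slc5a1 in middle against proximal arrays (0.0055, 0.0367 and 0.0451).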

How the data were processed

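The deposited values are on a log2 scale. The authors normalised the small intestine arrays together with Robust Multi-array Average (version not given in the sources used here). The labels give 1 week of chow and 2 weeks of low-fat run-in, and the methods give other lengths. Of 35556 probe sets, 21789 had exactly 1 symbol. A gene was tested if its intensity exceeded 50 on at least 1 array, and 25 pancreatic acinar genes were removed.

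limma 3.58.1 in R 4.3.3 (statmod 1.5.0) was fitted for segments with the 4 pools as a block (6 residual degrees of freedom), for age and diet within segments with 9 coefficients (3), and for age and diet on pool means (1). An age by diet interaction would enter the error term. On simulated data each fit recovered the differences put in. False calls stayed near the set rate in the segment and within-segment fits. They exceeded it in the fit on pool means, whose adjusted p-values are therefore somewhat too small. The simulated noise was independent between arrays, with no pool effect and no age by diet interaction. The simulation therefore does not show the error rates where these are present. The arrays of a pool come from the same mice, which is why the pool was the block; the pool correlation was 0.14 in the segment fit and -0.08 in the fit with 9 coefficients. P-values measure the spread between pooled arrays, not between mice. Python 3.11.15 with pandas 2.3.3 did the rest. With 1 array per group, the number of arrays limits the precision.

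The members and lists were chosen with earlier results of these data known. Named beside the 9 members were at most 4 genes of each list with the largest difference, the called genes of a comparison, and the 3 genes most correlated with each member. Alternatives covered the intensity filter, the scaling, the choice of probe set, the variance model, the pool term, the segment alone and each array, pool or segment left out.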

Additional observations from a re-analysis of the deposited data

How the results depend on the processing

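The 9 distal against proximal calls held in every alternative. With an intensity trend and robust variance, the members called numbered 6 (middle diet), 4 (distal diet), 1 (proximal diet), 2 (distal age), 1 (pool mean age), 2 and 3 (diet response, distal and middle against proximal) and 1 (age response, distal against proximal), where the values reported were 3, 2, 0, 0, 0, 0, 0 and 0. Without a filter on dim genes, 1 was called for diet in distal arrays and 1 in the pool means, where 2 and 4 were reported. In distal arrays the diet count was also 1 with the pool as a random block and 1 in that segment alone. With the intensity filter at 100, 1 gene, Lct, was called for distal age. The pool means without the middle segment called 1 for diet, and without the proximal segment they called 1 for age (Fbp1, adjusted p = 0.0495, range 0.0495 to 0.411 over the 9 alternatives). Leaving out 1 array gave 0 to 1 calls for distal diet and 0 to 0 for middle diet. Without the pool as a replicate block, the middle against proximal differences of Mgam and Slc5a1 stayed at -0.30 and -0.32 and were no longer called. Leaving a pool out of the pool means leaves no residual degree of freedom and was not run. Over all genes, the diet calls ranged from 26 to 859 in middle arrays around 304, from 132 to 1429 in pool means around 677, and the distal age calls from 1 to 451 around 78. In 65 cases a difference called neither as reported nor under the alternative changed sign, the largest of them 0.26 as reported.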
